A study of Zea mays with 6 samples.

Results

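Sh2, Bt2 and Bt1 are the maize genes that make ADP-glucose in the developing endosperm and bring it to the starch granule, and they were followed here by gene ID as 3 of the 33051 genes listed for whole maize kernels. Sh2 (Shrunken2, Zm00001d044129) encodes the large subunit and Bt2 (Brittle2, Zm00001d050032) the small subunit of ADP-glucose pyrophosphorylase (AGPase), and Bt1 (Brittle1, Zm00001d015746) encodes the ADP-glucose transporter of the amyloplast envelope. The link from these names to the IDs was given with the choice of members and could not be checked in the tables, which give IDs alone. The members were set by gene ID and not by a cut on their values, though with earlier results of these data known. All 3 were among the 20514 genes tested. The kernels came from the inbred line KN5585, a line used for maize transformation, and were taken 10 days after pollination. There were 3 libraries labelled transgenic, from 1 selected strain carrying introduced ZmSUS1, and 3 labelled control, from its non-transgenic counterpart without an introduced gene. The labels name neither the promoter of the introduced gene nor how many ears or plants went into a library. Because a single strain stands for the transgenic state, the comparison is between that strain and its control.

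AGPase joins a glucose phosphate to ATP to give ADP-glucose, the glucose donor of the starch synthases, and this step is regarded as a main control point of starch synthesis. The enzyme is built from large and small subunits in equal number. In cereal endosperm, unlike in leaves, most of the AGPase is cytosolic, so its product has to cross the amyloplast envelope, which Bt1 carries out in exchange for adenine nucleotides. Sucrose synthase, the product of SUS1, acts upstream by cleaving imported sucrose. Loss of Sh2, Bt2 or Bt1 in maize gives sugary, starch-poor kernels that collapse on drying, and Sh2 mutants are grown as supersweet corn.

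The libraries are described by level as FPKM, a fragment count divided by the length of the gene and by the library's mapped total. The division by length lets levels of different genes be set side by side, but only roughly. The annotation is not given, and reads shared with related genes cannot be told apart. Summed FPKM ranged from 1360220 to 1378940 in the libraries labelled transgenic and from 1359750 to 1367560 in those labelled control, and the number of fragments behind them is not known. SUS1 (Zm00001d047253), the gene introduced into the strain, averaged 155 ± 5.37 FPKM in the libraries labelled transgenic and 215 ± 5.58 FPKM in those labelled control (SD, n = 3 each). Its log2 fold change was -0.47 (limma, adjusted p = 0.000759). This is opposite to an overexpression, so every direction below is that of libraries named by their labels. The 20 most abundant genes took up 62.9 ± 0.727% of all FPKM in the libraries labelled transgenic and 58.1 ± 1.21% in those labelled control (SD, n = 3 each). The median of all tested genes differed by a log2 fold change of -0.13. Other endosperm markers could not be tied to IDs, and of 7 green tissue markers 5 plastid genes could: their summed level was 0.96 to 1.46 FPKM in the libraries labelled transgenic and 1.68 to 2.42 FPKM in those labelled control, and petA made up most of it, at 0.68 to 1.43 FPKM in the libraries labelled transgenic and 1.67 to 1.83 FPKM in those labelled control. Of the other 4, rbcL was no higher than 0.39 FPKM and psbA, psbC and psbD no higher than 0.14 FPKM in any library. How well these messenger RNA libraries catch plastid transcripts was not tested, and rbcS and cab1 could not be tied to IDs. These values are therefore not a measure of green tissue.

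Both the small AGPase subunit gene Bt2 and the transporter gene Bt1 rose in the kernels labelled transgenic, whereas the large subunit gene Sh2 did not pass the test across all genes. The mean level was 1.73-fold higher for Bt2, 1.53-fold higher for Bt1 and 1.10-fold that of the control for Sh2. Higher calls were made for 2 of the 3 genes, against 2.88% of all tested genes (591 of 20514) called higher and 16.2% (3316) called lower in the libraries labelled transgenic. Among the 687 genes averaging 100 FPKM or more, 5.68% were called higher. The median log2 fold change of the 3 genes was 0.61, and that of all tested genes was -0.13. In whole kernels a difference in the number of endosperm cells and a difference in RNA per cell cannot be told apart.

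Sh2, whose product is the large subunit, long seen mainly as the regulatory part of AGPase, was the most abundant of the 3 transcripts. It stood at 1202, 1214 and 1146 FPKM in transgenic replicates 1 to 3 and at 1142, 1038 and 1044 FPKM in control replicates 1 to 3. The groups did not overlap, but the gap between the lowest library labelled transgenic and the highest labelled control was only 4.25 FPKM, smaller than the SD of either group. The means were 1187 ± 35.9 FPKM in the libraries labelled transgenic and 1075 ± 58.4 FPKM in those labelled control (SD, n = 3 each). On the log2 scale the difference was 0.14 (standard error 0.056), with a 95% interval of 0.017 to 0.27, which did not pass (limma, adjusted p = 0.107; unadjusted p = 0.031). With the replicate number as a block, Sh2 passed at the same log2 fold change (limma, adjusted p = 0.0324), where 3.49% of tested genes were called higher. No label gives this pairing by number, which was inferred from the same values, so this pass is not separate support. It also passed under each of the 3 other scalings, given below.

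Bt2, whose product is the small subunit, long seen mainly as the catalytic part, was the least abundant of the 3 and had the largest fold change. Its level was 299, 301 and 299 FPKM in transgenic replicates 1 to 3 and 174, 170 and 176 FPKM in control replicates 1 to 3. The groups were far apart, with 123 FPKM between the lowest library labelled transgenic and the highest labelled control. The means were 299.9 ± 1.42 FPKM in the libraries labelled transgenic and 173 ± 2.98 FPKM in those labelled control (SD, n = 3 each). On the log2 scale the difference was 0.79 (standard error 0.044), with a 95% interval of 0.69 to 0.89 (limma, adjusted p = 4.68e-05). Replicates of Bt2 were very close to each other, with a coefficient of variation of 0.475% in the libraries labelled transgenic and 1.72% in those labelled control. Its residual SD within groups was 0.018 on the log2(FPKM + 1) scale, the 7th lowest among the 687 genes averaging 100 FPKM or more, whose median residual SD was 0.078.

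Bt1, the ADP-glucose transporter gene, lay between the AGPase subunit genes in level. It had 636, 583 and 547 FPKM in transgenic replicates 1 to 3 and 412, 384 and 359 FPKM in control replicates 1 to 3. Every library labelled transgenic was above every library labelled control, by at least 135 FPKM. The means were 589 ± 44.9 FPKM in the libraries labelled transgenic and 385 ± 26.2 FPKM in those labelled control (SD, n = 3 each). On the log2 scale the difference was 0.61 (standard error 0.073), with a 95% interval of 0.44 to 0.78 (limma, adjusted p = 0.00131). Bt1 varied more between replicates than Bt2, with a coefficient of variation of 7.62% in the libraries labelled transgenic and 6.81% in those labelled control. In both groups the library numbered 1 was the highest and the library numbered 3 the lowest. No label pairs the libraries by number. Set against the control library of the same number, transgenic replicates 1 to 3 had 1.54, 1.52 and 1.52 times the Bt1 level. The same folds were 1.72, 1.77 and 1.70 for Bt2 and 1.05, 1.17 and 1.10 for Sh2.

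**Figure D1:**
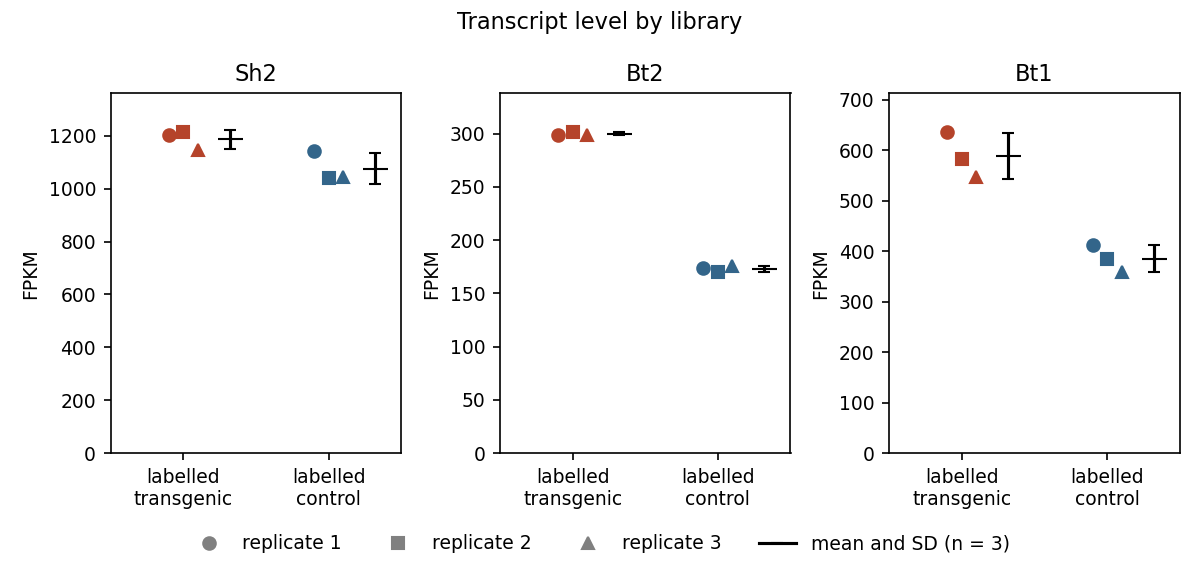
Level (FPKM, linear axis from 0) of Sh2, Bt2 and Bt1 in each of the 6 libraries, with the labelled transgenic group left of the labelled control group; symbols give the replicate number and black bars the mean and SD of 3 libraries. In the libraries labelled transgenic Bt2 lies at 299 to 301 and Bt1 at 547 to 636 FPKM, far above the labelled controls at 170.1 to 176 and 359 to 412 FPKM, whereas Sh2 at 1146 to 1214 FPKM nearly meets its labelled controls at 1038 to 1142 FPKM.

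All 3 genes had groups that did not overlap, with the libraries labelled transgenic on the higher side. This held for 7.36% of all tested genes and for 12.8% of the 687 genes averaging 100 FPKM or more. Of those 687 genes, Bt2 had the 2nd largest positive log2 fold change, Bt1 the 7th and Sh2 the 75th. Among all tested genes, 0.746% had a larger log2 fold change than Bt2, 1.52% a larger one than Bt1 and 12.6% a larger one than Sh2.

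**Figure D2:**
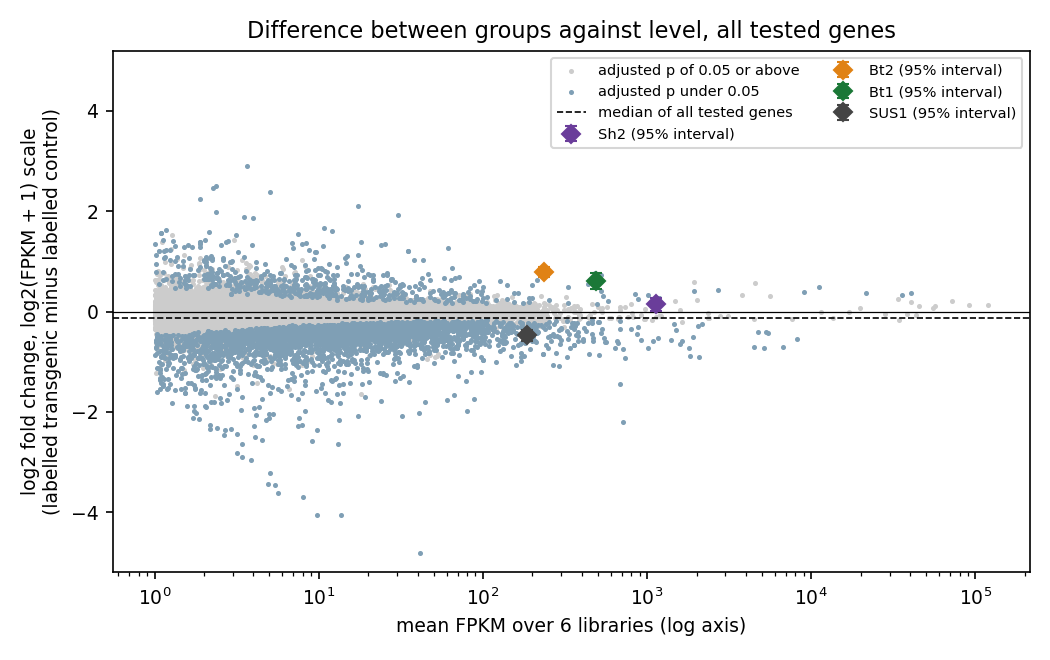
Log2 fold change of FPKM + 1 (labelled transgenic minus labelled control) against mean FPKM over 6 libraries (log axis) for the 20514 tested genes, with Sh2, Bt2, Bt1 and SUS1 as diamonds with 95% intervals. Bt2 at 0.79 and Bt1 at 0.61 stand at the upper edge of genes of their level, Sh2 at 0.14 lies just above the solid zero line, SUS1 at -0.47 lies below it, and the dashed line is the median gene at -0.13.

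The order of the levels was Sh2, Bt1, Bt2 in all 6 libraries. Sh2 exceeded Bt2 in level by 3.84-fold to 6.58-fold over the libraries, and Bt1 exceeded Bt2 by 1.83-fold to 2.37-fold. The level of Bt1 was 0.344 to 0.529 of the level of Sh2. Each of these 3 pairs differed in the same direction in 6 of 6 libraries (exact sign-flip permutation test, 2-sided, p = 0.031 before and after adjustment over the 3 pairs, the smallest p that 6 libraries allow). This p reflects a shared direction only, not the spread of the libraries. The test pools groups whose Sh2 to Bt2 ratios differ, and each ratio follows from the others. Within either group of 3 libraries it could not pass (exact sign-flip permutation test, 2-sided, p = 0.25). The lowest Sh2 level (1038 FPKM, control 2) was above the highest Bt1 level (636 FPKM, transgenic 1). The lowest Bt1 level (359 FPKM, control 3) was above the highest Bt2 level (301 FPKM, transgenic 2).

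All 3 transcripts were among the abundant ones of the kernel. Sh2 ranked 60, 58 and 58 by FPKM in transgenic replicates 1 to 3 and 66, 70 and 67 in control replicates 1 to 3. Bt1 ranked 93, 95 and 98 in transgenic replicates 1 to 3 and 149, 157 and 161 in control replicates 1 to 3. Bt2 ranked 178, 173 and 169 in transgenic replicates 1 to 3 and 390, 393 and 360 in control replicates 1 to 3. Bt2 thus lay within the top 0.539% of listed genes in the libraries labelled transgenic and within the top 1.19% in those labelled control.

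**Figure D3:**
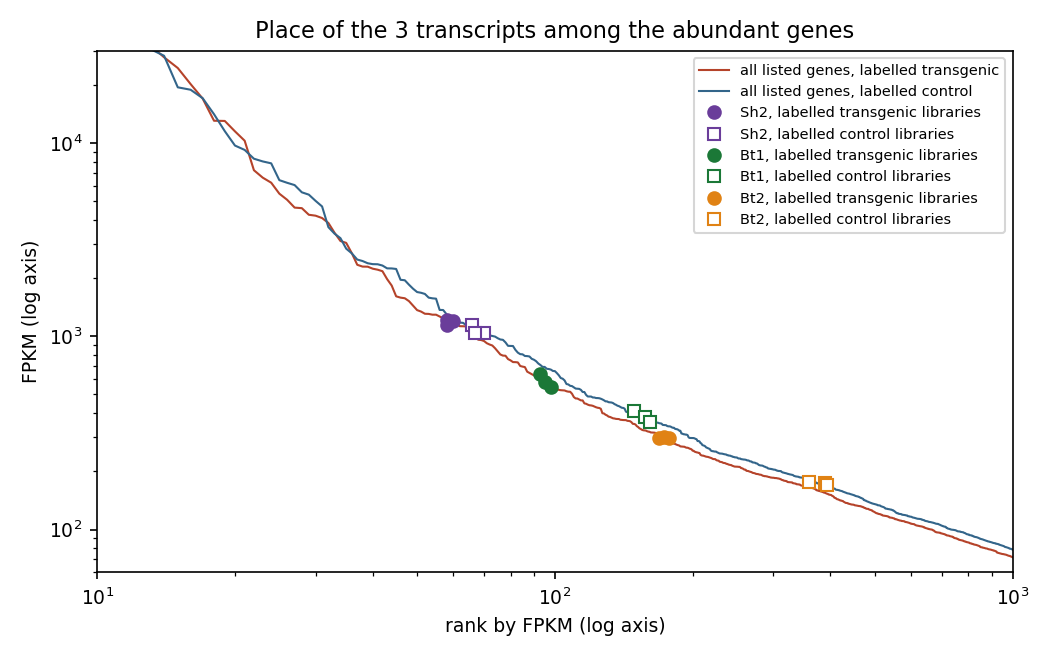
FPKM against rank by FPKM (both log axes) over the upper part of the ranking; lines show the group means of all listed genes and symbols show Sh2, Bt1 and Bt2 in each library, filled for labelled transgenic and open for labelled control. Bt1 stands at ranks 93 to 98 in libraries labelled transgenic and 149 to 161 in those labelled control, Bt2 at ranks 169 to 178 in those labelled transgenic and 360 to 393 in those labelled control, while Sh2 stays between ranks 58 and 70 in all 6.

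Ratios between the genes within a library do not change when all genes of the library are multiplied by 1 common factor, unlike under quantile normalization, and show whether the 3 transcripts differed between the groups by unequal factors. For every Bt2 fragment per kilobase there were 4.02, 4.03 and 3.84 from Sh2 in transgenic replicates 1 to 3 and 6.58, 6.11 and 5.93 in control replicates 1 to 3. The Sh2 to Bt2 ratio was therefore lower in every library labelled transgenic than in any labelled control. Other AGPase subunit genes could not be tied to IDs, so this is not the ratio of all large to all small subunit transcripts. How many other genes would separate the groups in a ratio to Bt2 or Sh2 was not counted. On the log2(FPKM + 1) scale, 0.746% of all tested genes had a larger log2 fold change than Bt2, and 12.6% a larger one than Sh2. A lower mean ratio to Bt2 was thus the common case among tested genes. For most of them the difference was larger than for Sh2, so it is not particular to this pair. The Sh2 to Bt2 ratio averaged 3.96 ± 0.107 in the libraries labelled transgenic and 6.21 ± 0.335 in those labelled control (SD, n = 3 each). The log2 difference was -0.65 with a standard error of 0.050, a ratio at 0.638 of its control value (exact permutation test, 2-sided, p = 0.1, the smallest that 3 against 3 libraries allow; 0.15 after adjustment over 3 ratios).

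The Bt1 to Sh2 ratio was higher in every library labelled transgenic than in any labelled control. Bt1 stood at 0.529, 0.481 and 0.477 of Sh2 in transgenic replicates 1 to 3 and at 0.361, 0.370 and 0.344 in control replicates 1 to 3. The log2 difference was 0.47 with a standard error of 0.057 (exact permutation test, 2-sided, p = 0.1; 0.15 after adjustment over 3 ratios). The Bt1 to Bt2 ratio overlapped between the groups, at 2.13, 1.93 and 1.83 in transgenic replicates 1 to 3 and 2.37, 2.26 and 2.04 in control replicates 1 to 3. Its log2 difference was -0.18 with a standard error of 0.090, with an unpaired exact permutation test giving p = 0.2, also after adjustment (2-sided). Between libraries of the same number, the log2 differences of this ratio were -0.16, -0.22 and -0.16 for numbers 1 to 3. The ratio was lower in the library labelled transgenic in 3 of 3 pairs (standard error over pairs 0.022). No label gives this pairing, which was inferred from the same values. Deviations from the group means correlated across genes at 0.135 for transgenic 1 with control 1 and 0.105 with control 2. For transgenic 2 they correlated at 0.122 with control 2 and 0.085 with control 1. The closeness of the 3 differences and their standard error therefore depend on the pairing. The paired exact sign-flip permutation test gave p = 0.25, the smallest that 3 pairs allow. Neither exact test could reach the threshold at this size, so whether Bt1 and Bt2 changed by unequal factors is not settled by them.

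**Figure D4:**
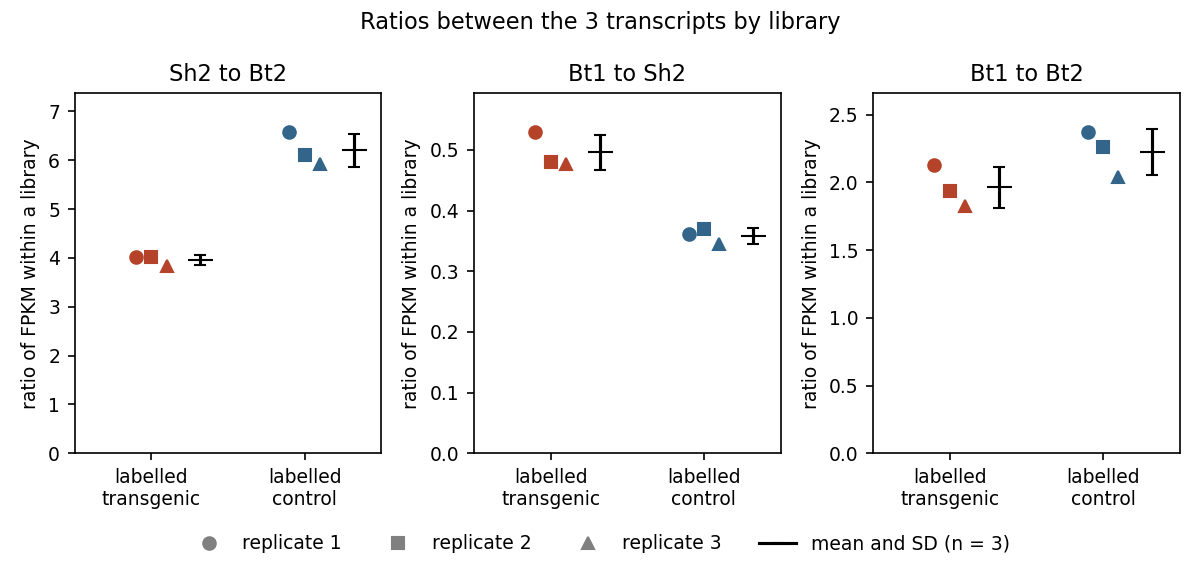
Ratio of FPKM within each library (linear axis from 0) for Sh2 to Bt2, Bt1 to Sh2 and Bt1 to Bt2, with the labelled transgenic group left of the labelled control group; symbols give the replicate number and black bars the mean and SD of 3 libraries. Sh2 to Bt2 is at 3.84 to 4.03 in the libraries labelled transgenic and at 5.93 to 6.58 in those labelled control, Bt1 to Sh2 is at 0.477 to 0.529 in those labelled transgenic and 0.344 to 0.370 in those labelled control, and the Bt1 to Bt2 groups overlap.

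Summed over the 3 genes, the level was 2076 ± 75.0 FPKM in the libraries labelled transgenic and 1633 ± 82.0 FPKM in those labelled control (SD, n = 3 each; exact permutation test, 2-sided, p = 0.1). As a share of all summed FPKM this was 0.152 ± 0.00450% in the libraries labelled transgenic and 0.120 ± 0.00562% in those labelled control (SD, n = 3 each; exact permutation test, 2-sided, p = 0.1). Of the summed level of the 3 genes, Sh2 made up 57.2 ± 0.854% in the libraries labelled transgenic and 65.8 ± 0.527% in those labelled control (SD, n = 3 each). Bt2 made up 14.5 ± 0.508% in the libraries labelled transgenic and 10.6 ± 0.549% in those labelled control (SD, n = 3 each). Bt1 made up 28.3 ± 1.25% in the libraries labelled transgenic and 23.6 ± 0.723% in those labelled control (SD, n = 3 each).

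FPKM is relative to a library's total, of which the 20 most abundant genes took a larger part in the libraries labelled transgenic, so the comparison was repeated with other scalings. With FPKM rescaled to the sum without those 20 genes, the log2 fold change was 0.31 for Sh2 (limma, adjusted p = 0.00303), 0.95 for Bt2 (limma, adjusted p = 2.28e-05) and 0.78 for Bt1 (limma, adjusted p = 6.91e-05). With median-ratio rescaling it was 0.29 for Sh2 (limma, adjusted p = 0.00661), 0.94 for Bt2 (limma, adjusted p = 2.68e-05) and 0.76 for Bt1 (limma, adjusted p = 0.00032). With quantile normalization it was 0.27 for Sh2 (limma, adjusted p = 0.00438), 0.96 for Bt2 (limma, adjusted p = 2.87e-05) and 0.83 for Bt1 (limma, adjusted p = 3.49e-05). These scalings moved the median gene to log2 fold changes of 0.015, 0.00067 and 0.013, and 6.82%, 6.29% and 6.67% of tested genes were then called higher. The calls split into 591 higher and 3316 lower on deposited values, 1399 and 1400 without the 20 genes, 1290 and 1510 with median-ratio rescaling, and 1369 and 1440 with quantile normalization. Relative to the median gene on deposited values, Bt2 was 1.88-fold, Bt1 1.67-fold and Sh2 1.21-fold higher in the libraries labelled transgenic. The call on Sh2 thus depends on the scaling, while Bt2 and Bt1 passed under each of them.

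**Figure D5:**
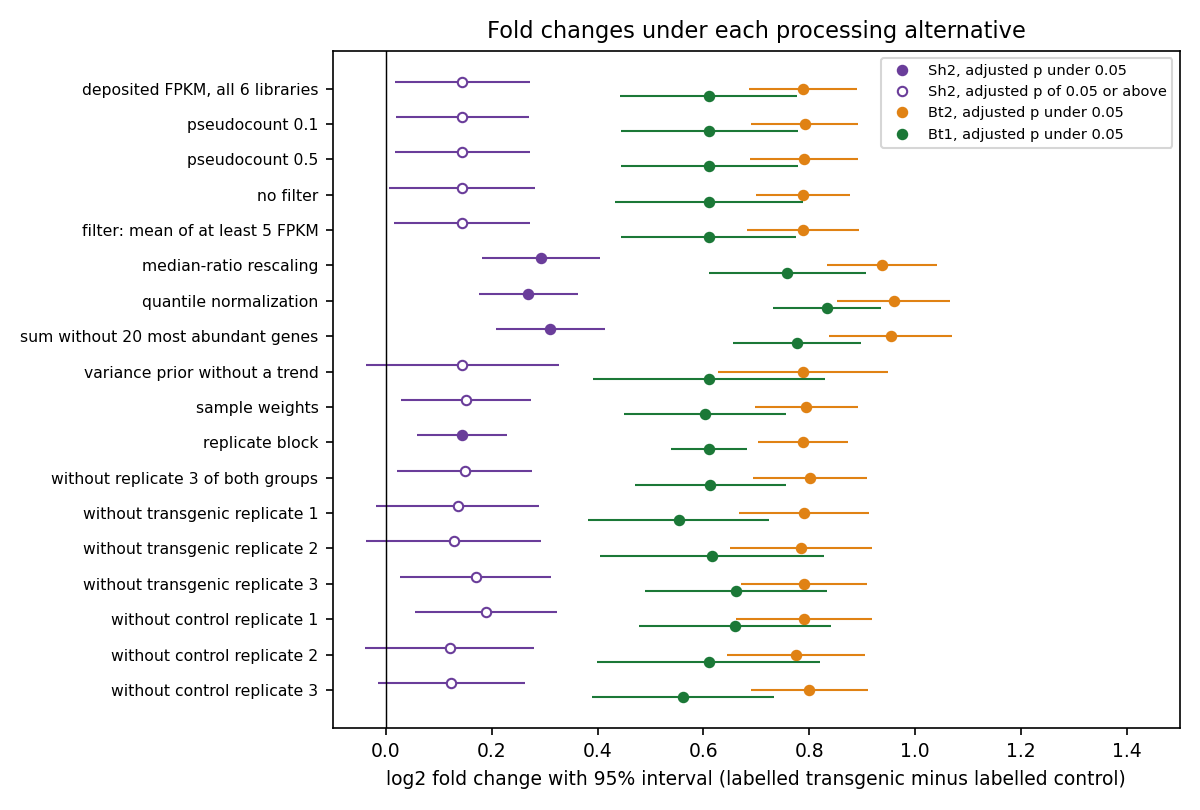
Log2 fold change (labelled transgenic minus labelled control) with its 95% interval for Sh2, Bt2 and Bt1 on deposited values and under each of 17 alternatives; filled points passed at an adjusted p of 0.05 and open points did not. Bt2 stays between 0.78 and 0.96 and Bt1 between 0.55 and 0.83, all filled, while Sh2 lies between 0.12 and 0.31 and is filled under 4 alternatives, the 3 rescalings and the replicate block.

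The genes most alike in pattern were found by Pearson correlation of log2(FPKM + 1) over the 6 libraries among 8384 genes averaging 10 FPKM or more, as a description in which the difference between the groups weighs heavily. The gene nearest to Bt2 was Zm00001d019674 (r = 0.9993), at 16.8, 17.03 and 17.1 FPKM in transgenic replicates 1 to 3 and 4.90, 4.34 and 4.69 FPKM in control replicates 1 to 3. The gene nearest to Bt1 was Zm00001d037234 (r = 0.9993), at 97.2, 91.5 and 88.2 FPKM in transgenic replicates 1 to 3 and 73.7, 69.5 and 66.2 FPKM in control replicates 1 to 3. Like Bt1, it was highest in the library numbered 1 and lowest in the library numbered 3 of each group, an order that the choice by correlation favours. The 8384 genes leave out the 3 members and genes with values identical to another gene. Of them, 134 (1.60%) reached a correlation of 0.95 with Bt2, 132 (1.57%) with Bt1 and 19 (0.227%) with Sh2. Between the members, r was 0.960 for Bt1 with Bt2, 0.902 for Bt1 with Sh2 and 0.820 for Sh2 with Bt2. The gene nearest to Sh2, Zm00001d031627, reached r = 0.976 and did not pass the test between the groups (log2 fold change 0.094; limma, adjusted p = 0.233). No source used here says what these genes encode.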

How the data were processed

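Messenger RNA libraries of 6 kernel samples were sequenced, per the labels' protocols. The authors deposited 1 table of FPKM values per library, per the file headers, with 2 decimals. The submitters' processing notes mention DESeq2 with no role, and no aligner, counting tool, build or annotation is given in the sources used here. Fragment counts are not known, so no counting interval was computed, and reads shared with related AGPase or transporter genes cannot be told apart; 0 of the 3 genes had values identical to another gene. Groups and replicate numbers came from the sample titles. The series text calls the libraries biological replicates, and what was sampled separately is not detailed.

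From the deposited FPKM, log2(FPKM + 1) of the 20514 genes averaging 1 FPKM or more was compared with limma 3.58.1 in R 4.3.3 (2-sided, no covariate, the 6 libraries in 1 fit, variance prior following the mean), with Benjamini-Hochberg adjustment over all of them and a threshold of 0.05. The model was tested on simulated data. Other settings tried were pseudocounts of 0.1 and 0.5, 2 filters, 3 scalings, another variance prior, sample weights, a replicate block and left-out libraries. Ratios and shares were compared by exact permutation over libraries. Named were the 3 genes, SUS1 and, per gene, the 1 most alike in pattern. The members, lists and tests were chosen with earlier results of these data known. The tables pair IDs with no names: the names of the 3 IDs were given with the choice of members and were not verified against the files or the reference, and that of SUS1 is in the series text. A RefSeq table (assembly Zm-B73-REFERENCE-NAM-5.0) matched 0 of 32852 nuclear IDs, so 0 of 33 starch pathway symbols could be added. Same-numbered libraries deviated together from their group means (correlations across genes of 0.135, 0.122 and 0.325, all over 0.1). However, control 2 and transgenic 1 also reached 0.105. The numbers were taken as pairs, from the values and not a label, in the replicate block and the paired comparisons only. The main fit and the unpaired exact tests did not use these pairs.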

Additional observations from a re-analysis of the deposited data

How the results depend on the processing

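Bt2, Bt1 and SUS1 kept their direction and passed under all 17 alternatives (limma adjusted p up to 0.00116, 0.00908 and 0.012). Sh2 stayed higher under all 17 but passed under 4 of them: at a log2 fold change of 0.29 with median-ratio rescaling, 0.27 with quantile normalization, 0.31 with the 20 most abundant genes left out of the sum, and 0.14 with the replicate block. Its adjusted p ranged from 0.00303 to 0.285, and leaving out single libraries gave 0.12 to 0.19. The replicate block gave 4469 calls over all genes in place of 3907 and changed the call of Sh2 but of none of Bt2, Bt1 and SUS1. Leaving out single libraries gave 2331 to 3316 calls, with fewer samples in each fit; the lowest counts were 2331 without control 1, 2345 without control 2 and 2470 without transgenic 2. The ratios and the share of the 3 genes kept their direction under all 9 alternatives each, in designs too small to pass 0.05. The share difference was 0.0317 percentage points, and 0.122 outside the 20 most abundant genes. The order of levels also held within each group and without any library, where too few libraries remain to pass. Its log2 ratio was 1.98 for Sh2 over Bt2, 0.97 for Bt1 over Bt2 and -1.01 for Bt1 over Sh2 within the libraries labelled transgenic, and 2.63, 1.15 and -1.48 within those labelled control. Without single libraries these were 2.23 to 2.38, 1.02 to 1.10 and -1.31 to -1.19. Without a count of fragments, the counting error of each level is not known.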
